A study of Mus musculus with 8 samples.

Results

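The thyroid hormone transport and receptor genes Slc16a10, Slco1c1, Dio2, Thra, Thrb, Klf9 and Hr were followed in dorsal forebrain of male mouse embryos at E12.5. They are 7 genes of 43629 listed, chosen by their symbols in the authors' deposited table, and all 7 passed the filter on low counts. The Sufu-cKO embryos, Emx1-cre/+;Sufu-fl/fl, carried 1 copy of the cre and floxed Sufu on both chromosomes. The controls were Sufu-fl/fl or Sufu-fl/+, which of these is not given per sample, and no cre is named for them. There were 4 samples a group, numbered Mut_295, Mut_317, Mut_337 and Mut_340 for Sufu-cKO and Cont_294, Cont_345, Cont_365 and Cont_370 for control. All samples had a mixed background with C57BL/6J. Emx1-cre acts in dorsal telencephalic progenitors and the cells they give rise to, so other cells in the dissected tissue, such as vessels and microglia, are expected to keep Sufu. The SUFU protein restrains the GLI transcription factors, through which Sonic hedgehog signals.

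Before the fetal thyroid works, the embryo depends on hormone from the mother. Thyroid hormone crosses membranes on carrier proteins, among them MCT10 (Slc16a10) and OATP1C1 (Slco1c1), the last a thyroxine carrier of brain vessels and choroid plexus. Inside the cell the deiodinase DIO2 turns thyroxine (T4) into the active hormone triiodothyronine (T3), and DIO3 inactivates both. T3 binds the nuclear receptors THRA and THRB, which pair with retinoid X receptors on DNA. Klf9, a zinc finger transcription factor, and Hr, a nuclear corepressor that binds these receptors, are well known T3-responsive genes of the developing brain.

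The sequences of Dio2 and of its counterpart Dio3 show what these genes share. Both are selenoproteins, in which a TGA codon in the reading frame is read as the selenocysteine of the active site. It is the first annotated selenocysteine codon of each gene, codon 130 of Dio2 and codon 170 of Dio3, both annotated in GENCODE M21 on GRCm38, and 41 of the 63 bases around it were identical between the genes (65.1%). The codon is in capitals.
Dio2, chr12:90729793-90729855, minus strand: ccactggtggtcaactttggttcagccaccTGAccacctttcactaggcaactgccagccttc
Dio3, chr12:110279709-110279771, plus strand: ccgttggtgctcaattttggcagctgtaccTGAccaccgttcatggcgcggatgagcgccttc

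RefSeq promoter windows (GRCm38.p6) were found for 5 of the 7 genes, all but Thra and Hr, which were not searched for motifs. There were 6 windows in all since Thrb has more than 1. The 250 bases before the annotated start are shown for Dio2, Slc16a10 and Slco1c1, which changed between the genotypes. Capitals mark matches to TGACGTCA, the cyclic AMP response element, which reads the same on both strands, and to TATAAA on the gene's strand.
Dio2, chr12:90739039-90739288, minus strand: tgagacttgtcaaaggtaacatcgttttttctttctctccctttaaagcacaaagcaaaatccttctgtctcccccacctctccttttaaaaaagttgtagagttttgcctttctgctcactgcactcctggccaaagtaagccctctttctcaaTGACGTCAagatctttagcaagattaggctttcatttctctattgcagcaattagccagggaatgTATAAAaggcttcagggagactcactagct
Slc16a10, chr10:40142255-40142504, minus strand: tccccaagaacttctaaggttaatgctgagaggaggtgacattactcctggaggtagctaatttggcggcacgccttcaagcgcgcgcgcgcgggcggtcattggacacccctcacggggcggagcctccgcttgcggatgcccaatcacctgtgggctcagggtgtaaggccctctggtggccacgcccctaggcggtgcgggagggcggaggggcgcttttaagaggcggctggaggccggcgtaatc
Slco1c1, chr6:141524104-141524353, plus strand: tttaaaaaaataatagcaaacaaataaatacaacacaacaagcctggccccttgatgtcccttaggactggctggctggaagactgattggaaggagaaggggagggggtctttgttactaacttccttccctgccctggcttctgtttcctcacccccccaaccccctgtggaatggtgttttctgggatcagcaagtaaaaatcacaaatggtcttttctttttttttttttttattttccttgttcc
In the Dio2 window TGACGTCA began 95 bases and TATAAA 30 bases before the start. Over 32851 promoter windows of the same length, 1.55% held TGACGTCA and 7.59% held TATAAA. The RefSeq start of Dio2, at 90739038 on chromosome 12, lies upstream of the deposited end of this minus-strand gene at 90738438. The windows of Slc16a10 and Slco1c1 held neither motif. AGGTCA, the hexamer bound by thyroid hormone receptors, was searched on both strands and was found in 1 of the 6 windows, that of the first Thrb start, and in 14.0% of all windows. AGGTCA repeated in the same direction after a gap of 4 bases (0.0152% of all windows, both strands) and the GLI motif GACCACCCA (0.225%, both strands) were in none of the 6. The G and C content was 41.6% for Dio2, 64.4% for Slc16a10 and 42.8% for Slco1c1.

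Total counts lay between 27514357 and 34878838 per sample. Sufu had 35.9 to 44.8 CPM in Sufu-cKO samples and 105 to 125 CPM in control samples, where CPM is the usual count relative to library size, here with TMM scaling. The 8 markers listed for dorsal progenitors summed to 2478 to 2724 CPM in Sufu-cKO and 2298 to 2591 CPM in control samples. Of these, 3 were called higher (Pax6, Sox2 and Nes) and 3 lower (Emx1, Emx2 and Lhx2). Nes was the largest part of the sum, with means of 1139.9 CPM in Sufu-cKO and 849 CPM in control. Emx1, Emx2 and Lhx2 fell without overlap (log2 fold changes -0.73, -0.72 and -0.51). Pax6, Sox2 and Nes rose without overlap (0.54, 0.58 and 0.42), and Hes5 and Fabp7 were not called. With changes in both directions, the sum alone does not check dorsal identity. No marker of any cell type list was at 0 throughout. The 7 young neuron markers summed to 2571 to 2876 CPM in Sufu-cKO and 2198 to 2556 CPM in control samples. Dcx and Tbr1 rose, and 5 were not called, 2 with log2 fold changes below 0 and 3 above. Of 8 ventral progenitor and GABAergic markers 7 were tested, with sums of 75.4 to 265 CPM in Sufu-cKO and 42.0 to 146 CPM in control samples. The 8 choroid plexus markers summed to 71.9 to 263 CPM in Sufu-cKO and 483 to 769 CPM in control samples, lowest in Mut_340, and 6 of them fell, among them Calml4, Folr1, Htr2c and Slc4a5. The 10 endothelial markers summed to 370 to 448 CPM in Sufu-cKO and 464 to 519 CPM in control samples (Kdr, Cdh5 and Ramp2 fell). For the 6 pericyte markers the sums were 105 to 130.3 CPM in Sufu-cKO and 138 to 163 CPM in control samples (Vtn fell), and for the 7 microglial markers 29.6 to 36.8 CPM in Sufu-cKO and 37.9 to 50.5 CPM in control samples (Pf4, Csf1r and Cx3cr1 fell). The 8 meningeal markers summed to 1516 CPM in Mut_337 and to 687 to 729 CPM in the other Sufu-cKO samples, against 848 to 911 CPM in control samples. Only Aldh1a2 was called, and it rose. Of the 7 not called, 4 had log2 fold changes below 0 and 3 above. The 6 erythroid markers summed to 2877 to 3267 CPM in Sufu-cKO and 3348 to 4474 CPM in control samples.

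Of the 7 thyroid hormone genes, 4 fell in Sufu-cKO: Dio2, Slc16a10, Slco1c1 and Thra. The other 3, Klf9, Hr and Thrb, did not pass the test, which was edgeR's quasi-likelihood test over 15382 genes with a call at an adjusted p under 0.05. Of all tested genes, 5.64% were called lower, 5.34% higher and 11.0% in either direction. The groups did not overlap, with Sufu-cKO below control, for 5 of the 7 genes and for 7.86% of all tested genes, while 8.33% of all tested genes had Sufu-cKO above control without overlap. The median log2 fold change of the 7 was -0.60, and that of all tested genes was 0.00708. The authors' deposited table gave 3 of the 7 a false discovery rate under 0.05, leaving out Thra. The count of 4 fell to 3 without Mut_337, Cont_294 or Cont_370 and to 2 without Mut_295, Mut_317 or Mut_340. It fell to 1 without Cont_345 or Cont_365, where Dio2 was the one left.

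**Figure D1:**
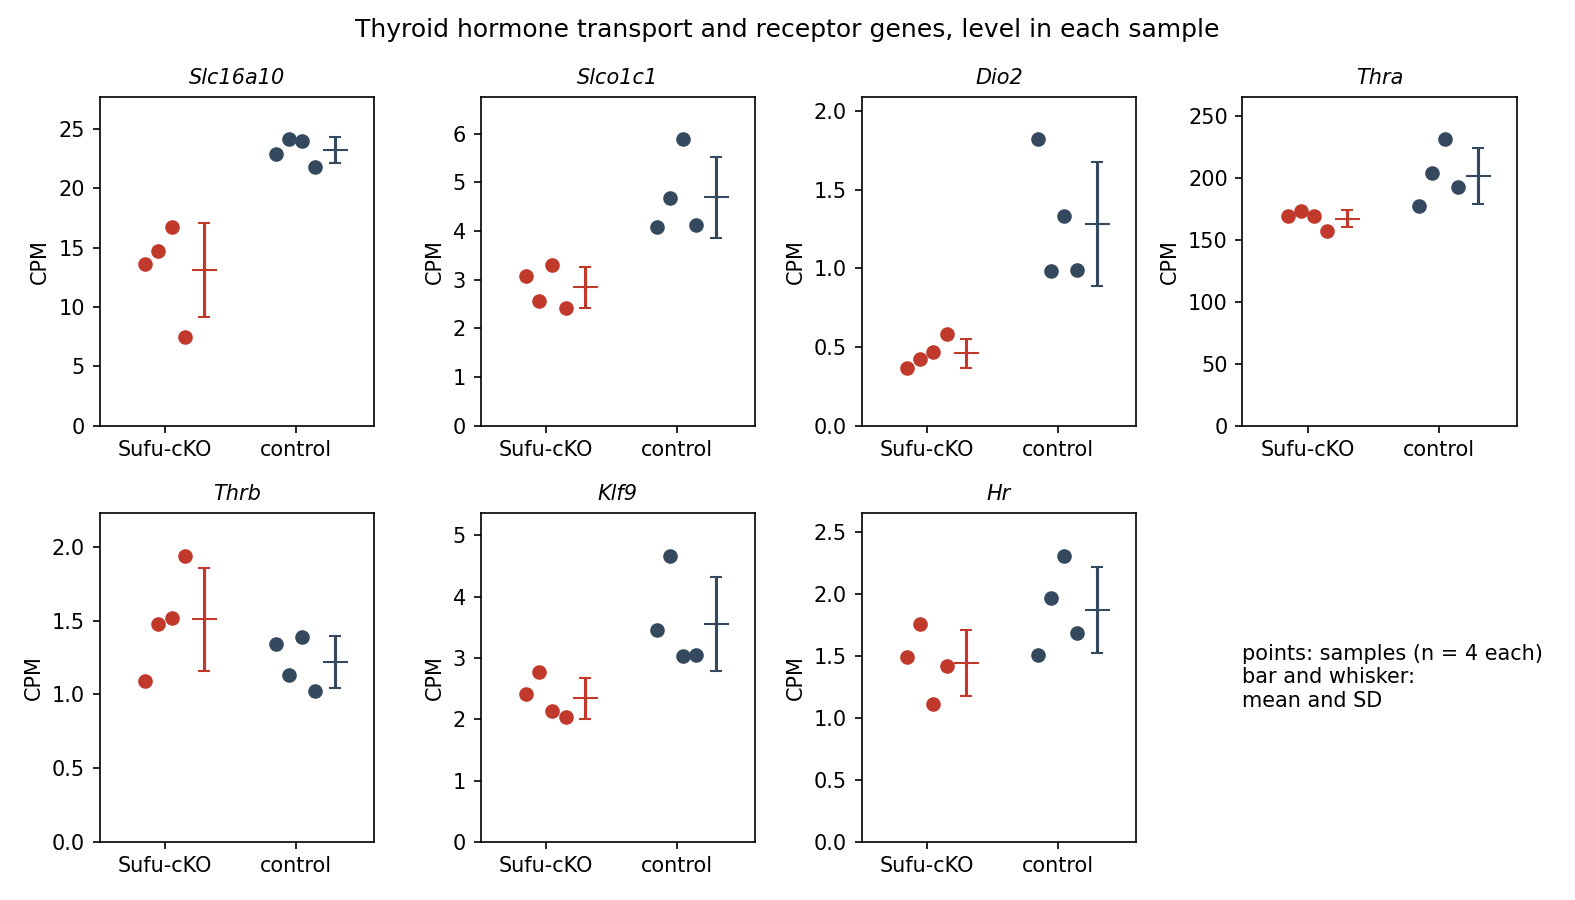
Level of each thyroid hormone gene in CPM (vertical axis) for the 4 Sufu-cKO and 4 control samples, with mean and SD beside the points. Sufu-cKO points lie below all control points for Slc16a10, Slco1c1, Dio2, Thra and Klf9, and the groups overlap for Thrb and Hr.

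Among the carriers, Slc16a10 (ENSMUSG00000019838, chromosome 10, 40033535 to 40142254, GRCm38, minus strand) encodes MCT10, which moves T3 and aromatic amino acids. It had 13.6, 14.7, 16.7 and 7.46 CPM in Mut_295, Mut_317, Mut_337 and Mut_340, against 22.9, 24.1, 24.0 and 21.8 CPM in Cont_294, Cont_345, Cont_365 and Cont_370. All Sufu-cKO samples were lower than all control samples, and Mut_340 was the lowest. The means were 13.1 ± 3.98 CPM in Sufu-cKO and 23.2 ± 1.09 CPM in control (SD, n = 4 each), a fold of 0.565. The log2 fold change was -0.82 (edgeR, SE 0.200, adjusted p = 0.0261). Without Mut_340 the change was -0.63 and still called (edgeR, adjusted p = 0.0018), but the call was lost without Mut_295 (adjusted p = 0.0648), Cont_294 (0.063), Cont_345 (0.072) or Cont_365 (0.074) and with no low-count filter (0.0721).

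Slco1c1 (ENSMUSG00000030235, chromosome 6, 141524386 to 141570177, plus strand) encodes the thyroxine carrier OATP1C1. It had 3.08, 2.57, 3.31 and 2.42 CPM in Mut_295, Mut_317, Mut_337 and Mut_340, against 4.08, 4.67, 5.88 and 4.12 CPM in Cont_294, Cont_345, Cont_365 and Cont_370. The groups did not overlap, and Cont_365 was the highest sample. The means were 2.85 ± 0.419 CPM in Sufu-cKO and 4.69 ± 0.837 CPM in control (SD, n = 4 each). Slco1c1 fell by 0.72 on the log2 scale (edgeR, SE 0.174, adjusted p = 0.020). The call was lost without Mut_317 (edgeR, adjusted p = 0.0591), Mut_340 (0.0509), Cont_345 (0.055) or Cont_365 (0.0626).

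Slco1c1 is known from brain endothelium and choroid plexus epithelium, and both carriers were set beside the marker sums of those cells. Slco1c1 CPM came to 0.613% to 0.74% of the summed endothelial CPM in Sufu-cKO samples and 0.82% to 1.13% in control samples, so the groups stayed apart. Set against the choroid plexus sum, Slco1c1 stood at 1.04% to 3.37% in Sufu-cKO and 0.688% to 0.854% in control samples without overlap, the opposite direction. Most of the choroid plexus sum in every sample was the marker Ttr (195 of 263 CPM in Mut_295 and 442 of 594 CPM in Cont_294). Its fold was 0.308, and the folds of the other markers ran from 0.24 (Kcne2) to 0.572 (Sostdc1). The folds of the carriers were 0.608 for Slco1c1 and 0.565 for Slc16a10. Every marker on the list thus fell more than Slco1c1, and all but Sostdc1 fell more than Slc16a10. The size of the shares rests largely on Ttr, and shares of single markers in each sample were not tested. For Slc16a10 the share of the endothelial sum was 2.02% to 3.73% in Sufu-cKO and 4.61% to 5.2% in control samples, and its share of the choroid plexus sum was 5.18% to 10.4% in Sufu-cKO and 3.12% to 4.51% in control samples. Both of these shares of Slc16a10 were without overlap. Its share of the microglial sum overlapped, at 23.3% to 49.6% in Sufu-cKO and 47.5% to 57.4% in control samples. In bulk tissue, fewer cells of a type and less RNA per cell cannot be told apart. The part of these cell types in the falls of the carriers was not tested.

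**Figure D2:**
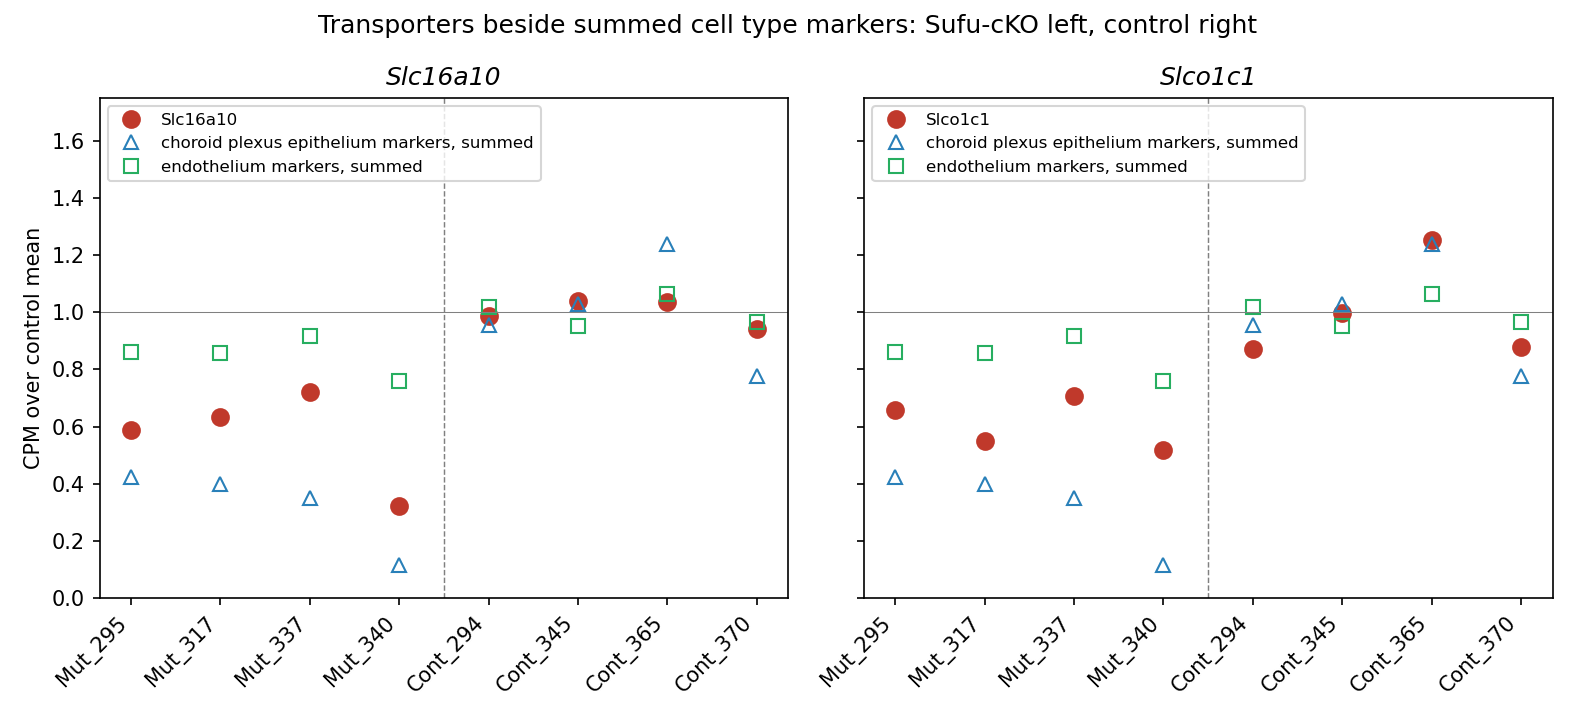
Slc16a10 (left) and Slco1c1 (right) by sample with the summed choroid plexus and endothelial markers, each as CPM divided by its mean over control samples, with Sufu-cKO samples left of the dashed line and control samples right of it. In every Sufu-cKO sample both carriers lie above the choroid plexus sum and below the endothelial sum, and Mut_340 is lowest of all samples for both carriers and both sums.

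The profile of Slc16a10 over the 8 samples was nearest to those of Dcdc2a, Pifo and Kcne2 among 12628 genes. Likeness was the root mean square difference between log2 CPM profiles standardised to mean 0 and SD 1, and it was 0.133, 0.146 and 0.147 for these genes. Kcne2, a potassium channel subunit of the choroid plexus epithelium, had 8.41, 8.80, 8.21 and 1.45 CPM in the Sufu-cKO samples, against 27.5, 29.8, 33.2 and 21.3 CPM in the control samples. Its lowest sample, Mut_340, is also that of Slc16a10. Nearest to Slco1c1 were Cbx8 (0.145), Nrros (0.147) and Vwa1 (0.197). Nearest to Dio2 were Adamts19 (0.175), Itm2b (0.226) and Morf4l1 (0.245), and nearest to Thra were Vat1 (0.137), Kcnj8 (0.192) and Slc15a4 (0.246). With both genotypes in the profile, a shared difference between them brings genes close.

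Of 9 other carriers on the list, 8 were tested, 3 fell and 5 did not pass (median log2 fold change -0.27). Among all tested genes, 5.64% were called lower. Slco1a4, an organic anion carrier of brain vessels, averaged 1.23 ± 0.346 CPM in Sufu-cKO and 3.24 ± 0.894 CPM in control (SD, n = 4 each), a log2 fold change of -1.39 (edgeR, SE 0.253, adjusted p = 0.00392). It came to 0.227% to 0.367% of the endothelial sum in Sufu-cKO samples and to 0.521% to 0.859% in control samples, while its shares of the choroid plexus sum overlapped (0.385% to 1.30% in Sufu-cKO and 0.422% to 0.579% in control samples). Slco2b1, an organic anion carrier, fell by 0.46 on the log2 scale (edgeR, SE 0.126, adjusted p = 0.0357). Its call held among the fits with 1 sample left out only without Mut_295 or Cont_370; without Mut_317, Mut_337, Mut_340, Cont_294, Cont_345 or Cont_365 the edgeR adjusted p was 0.051 to 0.101. With no low-count filter it was 0.0508. The share of the microglial sum taken by Slco2b1 was 16.7% to 20.5% in Sufu-cKO samples and 17.1% to 19.9% in control samples, with overlap. Its shares of the other sums did not overlap. They were lower in Sufu-cKO for endothelium (1.31% to 1.59% in Sufu-cKO and 1.6% to 1.77% in control samples) and pericytes (4.68% to 5.29% in Sufu-cKO and 5.30% to 5.75% in control samples), and higher for choroid plexus (2.22% to 7.41% in Sufu-cKO and 1.19% to 1.57% in control samples).

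Dio2 (ENSMUSG00000007682, chromosome 12, 90724554 to 90738438, minus strand), the activating deiodinase, had the largest change of the 7 genes. It had 11, 12, 16 and 18 counts in Mut_295, Mut_317, Mut_337 and Mut_340, against 53, 27, 42 and 35 counts in Cont_294, Cont_345, Cont_365 and Cont_370. In CPM these were 0.364, 0.422, 0.469 and 0.581 in the Sufu-cKO samples, against 1.82, 0.984, 1.33 and 0.988 in the control samples. Every Sufu-cKO sample was below every control sample. The mean was 0.459 ± 0.0921 CPM in Sufu-cKO and 1.28 ± 0.393 CPM in control (SD, n = 4 each), and the log2 fold change was -1.47 (edgeR, SE 0.283, adjusted p = 0.00563). Dio2 was called in all 8 fits with 1 sample left out, with log2 fold changes between -1.60 and -1.25. Dio2 came to 0.0864% to 0.157% of the endothelial sum in Sufu-cKO samples and to 0.210% to 0.365% in control samples, while its shares of the choroid plexus sum overlapped (0.139% to 0.808% in Sufu-cKO and 0.154% to 0.306% in control samples). Its shares of the pericyte and microglial sums were lower in Sufu-cKO without overlap. The part of these cells in the fall of Dio2 was not tested. The lincRNA Gm26512 overlaps Dio2 on the other strand and had at most 2 counts in any sample.

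Dio3 (ENSMUSG00000075707, chromosome 12, 110279068 to 110281097, plus strand), the inactivating deiodinase and an imprinted gene, went the other way. It had 363, 595, 1032 and 689 counts in Mut_295, Mut_317, Mut_337 and Mut_340, against 2, 6, 13 and 12 counts in Cont_294, Cont_345, Cont_365 and Cont_370. The mean was 21.4 ± 7.47 CPM in Sufu-cKO and 0.259 ± 0.150 CPM in control (SD, n = 4 each), a rise of 79.3-fold (log2 fold change 6.31, edgeR, SE 0.417, adjusted p = 1.99e-05). Per kilobase of exon, Dio3 stood at 94.5 to 185 times the level of Dio2 in Sufu-cKO samples and at 0.108 to 0.982 times that level in control samples. Dio1, another deiodinase, had 0 counts in every sample. Of the 7 genes listed as other deiodinases and binding proteins, 4 were tested: 1 rose and 3 did not pass. Among all tested genes, 5.34% were called higher. Ttr, the thyroxine carrier protein made by choroid plexus, averaged 143 ± 65.1 CPM in Sufu-cKO and 465 ± 103 CPM in control (SD, n = 4 each) and missed the threshold (log2 fold change -1.70, edgeR, SE 0.435, adjusted p = 0.0591). Ttr was called with all samples by DESeq2 (adjusted p = 0.00141), by limma-voom (0.00674) and by edgeR without robust estimation (0.00796), and by edgeR without Mut_340 (log2 fold change -1.42, adjusted p = 0.00632).

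**Figure D3:**
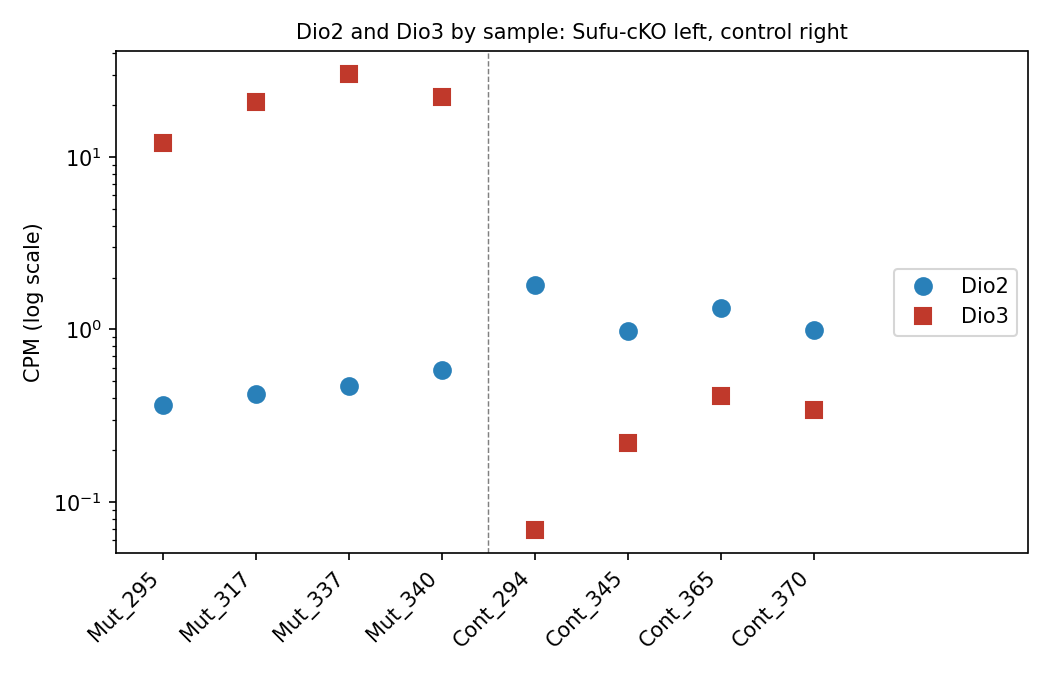
CPM of Dio2 (circles) and Dio3 (squares) on a log axis for each sample, with Sufu-cKO samples left of the dashed line and control samples right of it. Dio3 lies above Dio2 in all 4 Sufu-cKO samples and below it in all 4 control samples, and the order is the same per kilobase of exon.

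Thra (ENSMUSG00000058756, chromosome 11, 98740638 to 98769006, plus strand) was by far the more abundant receptor gene. It had 169, 173, 169 and 157 CPM in Mut_295, Mut_317, Mut_337 and Mut_340, against 177, 204, 231 and 193 CPM in Cont_294, Cont_345, Cont_365 and Cont_370. The groups were apart by a small margin, with Cont_294 closest to the Sufu-cKO samples. The mean was 167 ± 7.04 CPM in Sufu-cKO and 201 ± 22.5 CPM in control (SD, n = 4 each), and Thra fell by 0.27 on the log2 scale (edgeR, SE 0.0746, adjusted p = 0.0371). The call held among the fits with 1 sample left out only without Cont_294 (adjusted p = 0.0163); without Mut_295, Mut_317, Mut_337, Mut_340, Cont_345, Cont_365 or Cont_370 it was 0.051 to 0.101. The authors' deposited table gave Thra a false discovery rate of 0.0644. Thra shares of the endothelial, pericyte and microglial sums overlapped between the genotypes, while its share of the choroid plexus sum was 64.3% to 218% in Sufu-cKO samples and 29.9% to 40% in control samples. Counts per gene do not separate the hormone-binding isoform from the one that does not bind T3. The 3' end of Thra overlaps exons of Nr1d1, a circadian repressor on the other strand, over 263 bases, and Nr1d1 had 2.58 ± 0.913 CPM in Sufu-cKO and 3.61 ± 0.198 CPM in control (SD, n = 4 each).

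Thrb (ENSMUSG00000021779, chromosome 14, 17660960 to 18038088, plus strand), the other receptor gene, had 1.09, 1.48, 1.52 and 1.94 CPM in the Sufu-cKO samples, against 1.34, 1.13, 1.39 and 1.02 CPM in the control samples. The groups overlapped, with Mut_340 the highest sample. Its log2 fold change of 0.31 (edgeR, SE 0.225, adjusted p = 0.481) did not pass. Per kilobase of exon the level of Thra was 130 to 248 times that of Thrb in Sufu-cKO samples and 213 to 305 times in control samples, with overlap between the groups.

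Of 15 receptor partners and coregulators, 14 were tested, 1 rose and 13 did not pass (median log2 fold change 0.04). For comparison, 5.34% of all tested genes were called higher. The one that rose was Rxra, which encodes the retinoid X receptor alpha that pairs with thyroid hormone receptors. It had 76.2 ± 6.44 CPM in Sufu-cKO and 58.9 ± 1.85 CPM in control (SD, n = 4 each), a log2 fold change of 0.37 (edgeR, SE 0.0675, adjusted p = 0.00392), called in all fits with 1 sample left out. Ncor1, a corepressor of receptors without hormone and the gene with the highest CPM of the list, averaged 385 ± 25.4 CPM in Sufu-cKO and 384 ± 16.2 CPM in control (SD, n = 4 each).

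The T3-responsive Klf9 (ENSMUSG00000033863, chromosome 19, 23141226 to 23166911, plus strand) had 2.42, 2.78, 2.14 and 2.03 CPM in Mut_295, Mut_317, Mut_337 and Mut_340, against 3.46, 4.67, 3.03 and 3.05 CPM in Cont_294, Cont_345, Cont_365 and Cont_370. No Sufu-cKO sample reached a control sample. Klf9 nonetheless missed the threshold (log2 fold change -0.60, edgeR, SE 0.190, adjusted p = 0.0679), and it was called by DESeq2 (adjusted p = 0.0453). The deposited table of the authors gave it a false discovery rate of 0.0809. Hr (ENSMUSG00000022096, chromosome 14, 70552212 to 70573548, plus strand) had 1.49, 1.76, 1.11 and 1.42 CPM in the Sufu-cKO samples, against 1.51, 1.97, 2.31 and 1.69 CPM in the control samples. The groups overlapped, and the log2 fold change of -0.37 (edgeR, SE 0.214, adjusted p = 0.345) did not pass.

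Of 15 other genes listed as T3-responsive in rodent brain or liver, 12 were tested, 2 fell and 10 did not pass (median log2 fold change -0.13). Among all tested genes, 5.64% were called lower. Reln, the secreted guide of cortical neurons made by Cajal-Retzius cells, averaged 108 ± 14.3 CPM in Sufu-cKO and 142 ± 12.7 CPM in control (SD, n = 4 each; log2 fold change -0.40, edgeR, SE 0.0933, adjusted p = 0.0181). Sema7a, a membrane semaphorin, averaged 18.4 ± 3.46 CPM in Sufu-cKO and 27.3 ± 4.37 CPM in control (SD, n = 4 each; log2 fold change -0.57, edgeR, SE 0.142, adjusted p = 0.0235). The groups overlapped for Sema7a, with 23.3 CPM in Mut_295 and 22.8 CPM in Cont_370, but not for Reln. Among the 10 that did not pass, 5 had values below 0 and 5 above. The call of Reln did not survive leaving out Cont_345, where edgeR gave an adjusted p of 0.0598. Sema7a lost its call without Mut_317, Mut_337, Mut_340, Cont_345 or Cont_365 (edgeR, adjusted p from 0.0546 to 0.0699).

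**Figure D4:**
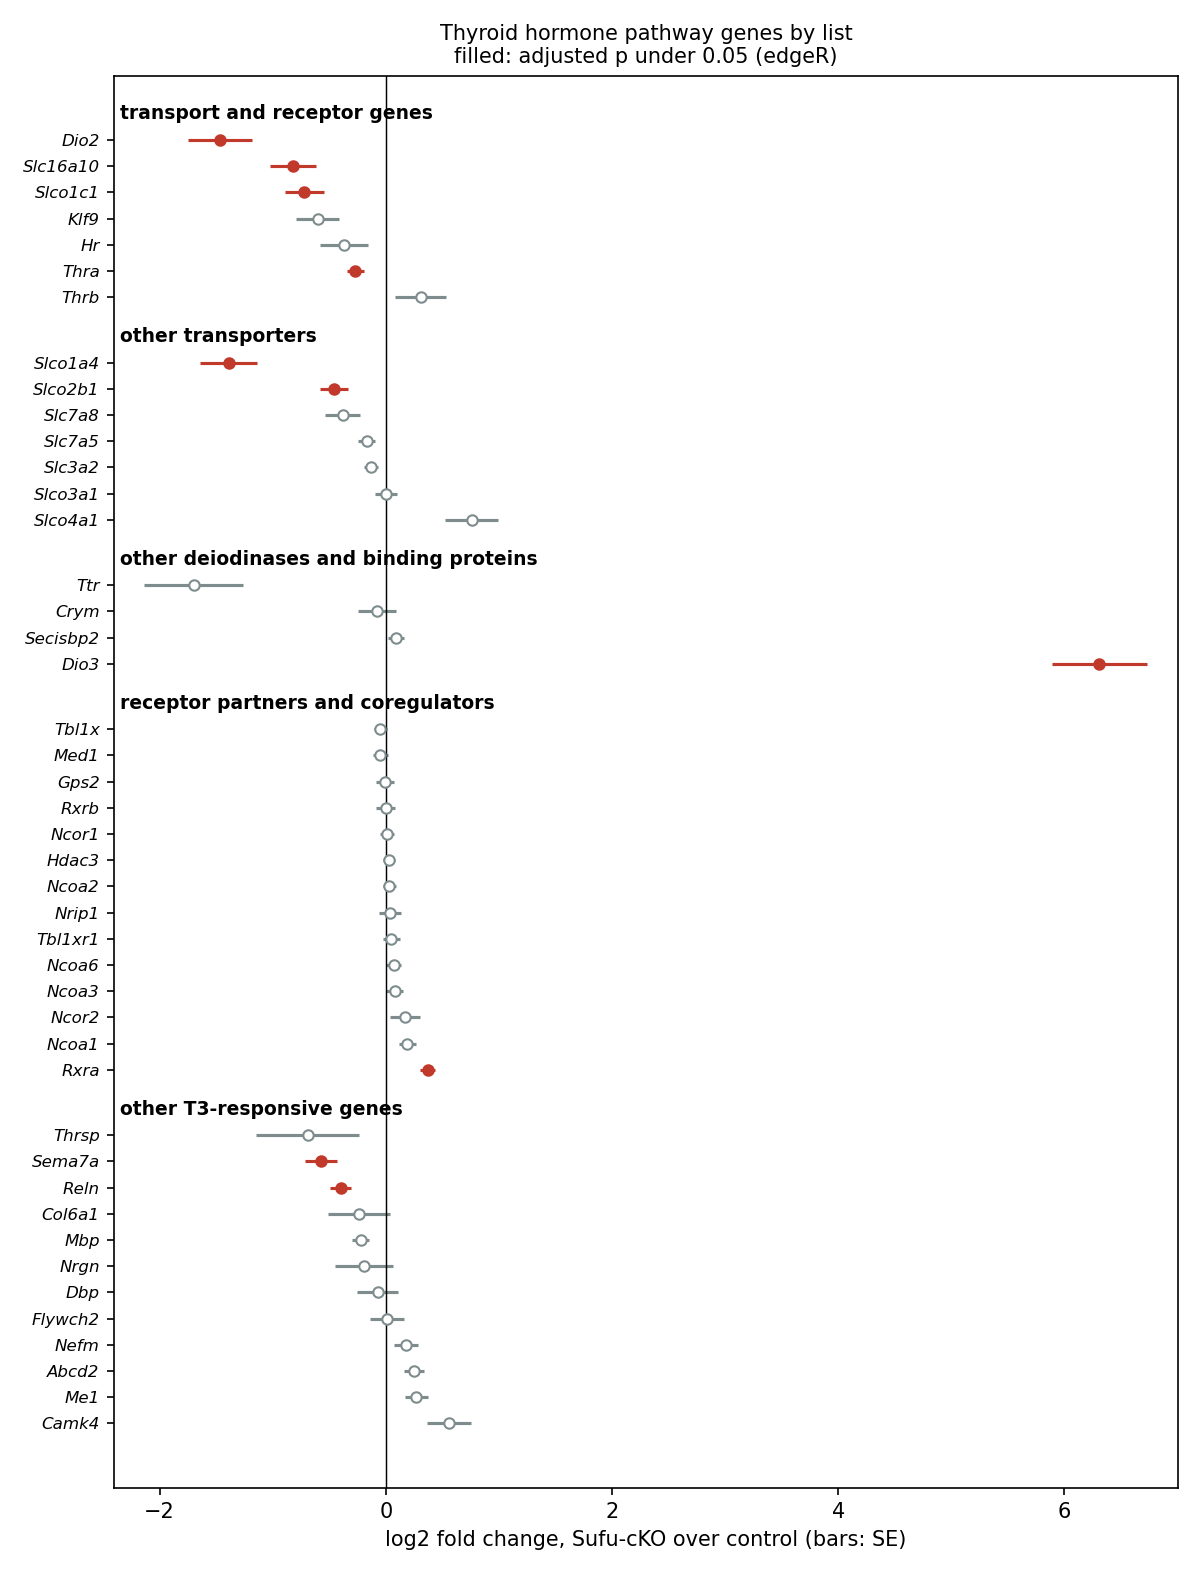
Log2 fold change of Sufu-cKO over control (horizontal axis, bars are SE) for the transport and receptor genes and tested genes of 4 further pathway lists, filled where edgeR's adjusted p was under 0.05. Dio3 stands at 6.31 and Dio2 at -1.47, while the receptor partners and coregulators lie between -0.05 and 0.37.

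Levels were compared between genes as CPM per kilobase of exon, with lengths from GENCODE M21. In Sufu-cKO samples the order was Thra (36.2 ± 1.53), Slc16a10 (1.78 ± 0.541), Slco1c1 (0.549 ± 0.0808), Klf9 (0.487 ± 0.0692), Hr (0.209 ± 0.0384), Thrb (0.204 ± 0.0467) and Dio2 (0.079 ± 0.0158, SD, n = 4 each). Slco1c1 and Klf9 overlapped between samples, as did Hr and Thrb, while Dio2 lay below Thrb in all samples. In control samples the order was Thra (43.6 ± 4.87), Slc16a10 (3.15 ± 0.149), Slco1c1 (0.904 ± 0.161), Klf9 (0.738 ± 0.160), Hr (0.270 ± 0.0501), Dio2 (0.220 ± 0.0676) and Thrb (0.165 ± 0.0237, SD, n = 4 each). There the ranges of Slco1c1 and Klf9 overlapped, and so did those of Hr and Dio2 and of Dio2 and Thrb.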

How the data were processed

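Dorsal forebrain RNA of 4 Sufu-cKO and 4 control samples was sequenced from stranded, polyadenylated RNA libraries, per the labels' protocols. Reads were aligned with STAR 2.4.2a to GRCm38, as the submitters' processing notes name them. How reads were counted, whether by strand and against which annotation release is not given in the sources used here. Raw counts per gene, as deposited, were tested here. A second deposited table holds a signal, each count divided by 1 size factor per sample, with the authors' fold change (a ratio), p-value and false discovery rate. In it 1 gene ID had become a spreadsheet formula and was restored. Columns matching no sample numbered 0.

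Groups came from genotype labels and sample numbers from titles. Whether each sample is a separate embryo or litter is not stated in the labels, and p-values then measure only how far these samples spread, which may be technical. No pair of samples within a group agreed within sampling noise (chi-square test of counts), and each counted once.

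In R 4.3.3 with edgeR 4.0.16, filterByExpr (minimum count 10, minimum total 15) kept 15382 of 25299 genes with any count, and libraries were scaled by TMM. The genotypes were compared by the 2-sided quasi-likelihood test, with a robust fit and Benjamini-Hochberg adjustment over all tested genes. SE was back-calculated from the F statistic. Log2 CPM used a prior count of 2. Alternatives were DESeq2 1.42.0, limma-voom (limma 3.58.1), 3 scalings, 2 filters, no robust estimation, and each sample left out. The test was checked on simulated counts.

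The 7 genes and all lists were chosen with earlier results of these data known. Named genes were the 7, from each list up to 4 called genes in order of p (or those with the highest CPM, where fewer than 2 were called), the 3 genes nearest in profile to each called gene (mean of at least 1 CPM), and genes overlapping the 7. Some listed genes are not reported here. Other genes named were chosen after their values were seen.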

Additional observations from a re-analysis of the deposited data

Results flagged for a closer look

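No sample stood apart within its group for any of the 7 thyroid hormone genes. Over 56 genes examined, these 7 included, the most extreme sample was far from the rest of its group in 5 of 112 groups of 4 samples, and chance flags about 1 in 20. Ncor1 had 408 CPM in Cont_345 and 375 to 377 CPM in the other control samples. Col3a1, a meningeal marker, had 701 CPM in Mut_337 and 377 to 404 CPM in the other Sufu-cKO samples. Hbb-y, an embryonic globin, had 2751 CPM in Mut_295 and 2529 to 2553 CPM in the other Sufu-cKO samples. Htr2c, a choroid plexus marker, had 15.6 CPM in Cont_370 and 21.4 to 22.3 CPM in the other control samples. Kcne2, another choroid plexus marker, had 1.45 CPM in Mut_340 and 8.21 to 8.80 CPM in the other Sufu-cKO samples.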

How the results depend on the processing

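All 7 thyroid hormone genes kept their direction under every scaling, filter and test tried and with each sample left out. The number called was 4 under the other scalings, limma-voom and without robust estimation, 3 with no low-count filter, 3 with at least 1 CPM in 4 samples (which removed Dio2 from the test, so Dio2 has no value there) and 5 by DESeq2. With 1 sample left out it ranged from 1 to 3, and the number of all genes called ranged from 1079 (without Cont_345) to 1836, against 1689 with all samples. Ncor1, at 0.00639, crossed 0 with values of -0.0125 under upper quartile scaling, -0.012 with library size only, -0.000678 with no low-count filter, -0.00412 with at least 1 CPM in 4 samples, and -0.0201 to 0.0491 with 1 sample left out. The causes were not tested. No scaling moved the median of all genes by more than 0.1 on the log2 scale. Dio2, Thrb and Hr had under 100 counts in every sample, which limits what could be detected for them. No paired analysis was possible because the genotypes share no sample number in the labels.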

Other observations

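Several pathway genes had too few reads for the test. Slco1a5, an organic anion carrier, had 1 to 6 counts in Sufu-cKO samples and 7 to 9 in control samples. Rxrg, the retinoid X receptor gene with the fewest reads, had 8 to 15 counts in Sufu-cKO samples and 1 to 8 in control samples. Serpina7, which encodes thyroxine-binding globulin, had 0 or 1 count in every sample, and Iyd, the iodotyrosine deiodinase, had 2 to 5.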
